A study of Homo sapiens with 9 samples.

Results

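The NF-kB subunits and their feedback inhibitors were followed in A549 cells after an siRNA against NRF2. The members were chosen by gene symbol, as every probe set that the array's annotation ties to exactly 1 gene of a list of 10: the subunit genes NFKB1, NFKB2, REL, RELA and RELB, the inhibitor genes NFKBIA, NFKBIE and TNFAIP3, and BCL3 and BIRC3. The rule found 17 probe sets of 8 genes, out of 41091 single-gene probe sets of 19775 genes on the array. Both probe sets that the annotation ties to BCL3 also carry a microRNA gene, and it lists no probe set under BIRC3, so these 2 genes have no value here.

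A549 is an established line of human lung adenocarcinoma cells, and it carries an inactivating mutation of KEAP1, the protein that targets NRF2 for degradation, so NRF2 is active in it without added stress. The groups were Nrf2 siRNA (cells given 25 nM of an siRNA against the mRNA of NFE2L2, the gene of NRF2), NS siRNA (cells given 25 nM of a non-targeting siRNA) and mock (cells given only the lipid transfection reagent). All cells were A549, RNA was taken 96 h after transfection, and each group held 3 biological replicates with 1 Affymetrix array each. The study asked which genes NRF2 regulates. The design has a single Nrf2 siRNA group, no rescue and a single cell line, so loss of NRF2 and off-target action of the siRNA used cannot be told apart.

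NF-kB is a family of dimeric transcription factors that drives inflammatory, survival and immune genes. In the canonical pathway IkB proteins hold RELA, REL and NFKB1 (p50) dimers in the cytoplasm until the IKK kinase complex marks the IkB for destruction. In the non-canonical pathway the kinase NIK, encoded by MAP3K14, triggers the processing of the NFKB2 product p100 to p52, which pairs with RELB. Members that are themselves known NF-kB targets include NFKB2, RELB, NFKBIA, NFKBIE and TNFAIP3, which makes the inhibitors among them part of a negative feedback loop. This list is not complete, and the members were not sorted into targets and non-targets.

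The values are log2 expression levels, so a difference of 1 is a 2-fold difference. Array medians lay between 7.51 and 7.57, and the lowest r across probe sets within a group was 0.9979 (probe sets are not independent replicates). The siRNA target itself came down: NFE2L2 (201146_at) stood at 10.25 ± 0.11 in Nrf2 siRNA, 12.09 ± 0.06 in NS siRNA and 11.99 ± 0.08 in mock (SD, n = 3 each). That left 27.9% of the NS siRNA level by this probe set and 45.2% by 1567013_at, while 1567015_at differed by -0.11 ± 0.06 (SE) and did not pass the test (limma adjusted p = 0.172). The median level over all probe sets was 7.54. All 8 measured epithelial marker genes lay above it, as did 6 of 8 measured fibroblast marker genes. Of 8 measured immune marker genes, 5 lay below the median. Against NS siRNA, 4 epithelial markers were called higher and 1 lower. The log2 of the summed level of the immune markers ran from 10.67 to 10.77 in Nrf2 siRNA, from 10.56 to 10.62 in NS siRNA and from 10.44 to 10.55 in mock, and against NS siRNA 1 was called higher (CD14, by 0.96), 1 lower (ITGAM, at -0.28) and 6 were not called. For 8 fibroblast markers it ran from 12.13 to 12.33 in Nrf2 siRNA, from 11.24 to 11.29 in NS siRNA and from 11.69 to 11.95 in mock, and 4 of them were called higher than in NS siRNA. The part of other cells in the results was not tested; in bulk samples, fewer cells of a type and less RNA per cell cannot be told apart.

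Against NS siRNA, the non-canonical subunit genes and the feedback inhibitors fell and REL rose. NFKB2 fell most, 2.84-fold, followed by NFKBIE (1.74-fold), TNFAIP3 (1.68-fold), RELB (1.51-fold) and NFKBIA (1.24-fold), by the probe set of highest level for each gene. REL rose 1.41-fold, and neither RELA nor NFKB1 passed the test. In all, 13 of the 17 probe sets passed (limma, adjusted p under 0.05 over the 41091 probe sets), 8 of them lower, of NFKB2, RELB, NFKBIA, NFKBIE and TNFAIP3, and 5 higher, all of REL. Over all probe sets 41.7% passed, 20.2% higher and 21.5% lower. Calls were more common among brighter probe sets: with only those above the median level fitted, 14133 of 23096 passed, and 10 of 13 member probe sets. Probe sets of 1 gene share its transcript and are not independent of each other. The median difference of the 17 was -0.05, beside -0.04 over all probe sets, and the median size without sign was 0.47, beside 0.13. Of the 17, 2 differed by 2-fold or more, both of NFKB2, against 2.57% of all probe sets. Against mock, NFKB2 (207535_s_at), RELB and NFKBIE were also lower. TNFAIP3 (-0.17, 202644_s_at) and NFKBIA (0.03, 201502_s_at) did not pass against mock (limma adjusted p = 0.108 and 0.849). By the same probe sets, NS siRNA lay above mock for all of these genes, by 0.58 for TNFAIP3 and 0.34 for NFKBIA.

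**Figure D1:**
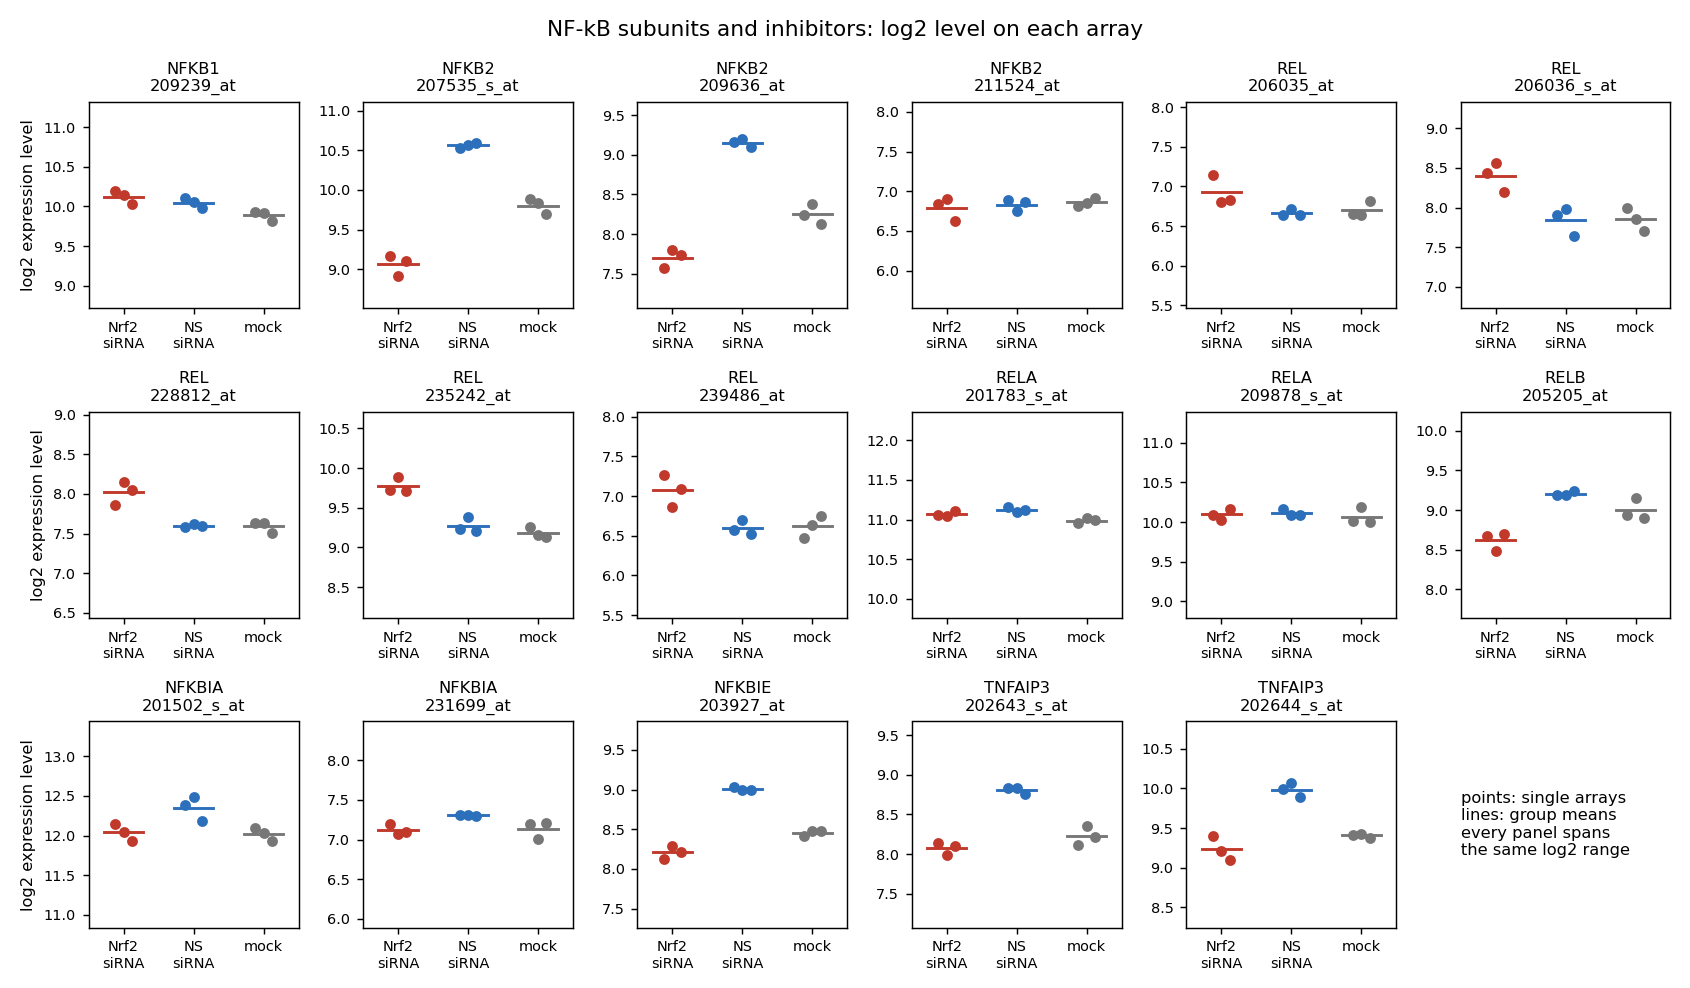
Log2 expression level (vertical axis) of each of the 17 probe sets on the Nrf2 siRNA, NS siRNA and mock arrays (horizontal axis). Points are single arrays, lines are group means, and every panel spans the same log2 range. NFKB2 (207535_s_at) lies between 8.92 and 9.16 on the Nrf2 siRNA arrays, below the NS siRNA arrays (10.53 to 10.60) and the mock arrays (9.70 to 9.88), and in 4 of the 5 REL panels every Nrf2 siRNA array lies above all other arrays, while for 206035_at they overlap the mock arrays.

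RELA encodes p65, the subunit with the main activation domain of the canonical dimer. Its brighter probe set, 201783_s_at, read 11.06, 11.04 and 11.11 in Nrf2 siRNA, 11.15, 11.09 and 11.12 in NS siRNA, and 10.96, 11.01 and 10.99 in mock. The siRNA groups overlapped, with a difference of -0.05 ± 0.05 (SE; 95% interval -0.15 to 0.05; adjusted p = 0.386). The other RELA probe set, 209878_s_at, differed by -0.02 ± 0.06 (95% interval -0.15 to 0.11). Against mock the Nrf2 siRNA arrays were 0.08 (interval -0.02 to 0.18) and 0.03 (interval -0.10 to 0.16) above, and neither passed. A p above the threshold does not show equal levels; the intervals give the size of change in RELA mRNA that the arrays leave possible.

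NFKB1 encodes p105, the precursor of p50 that pairs with RELA. Its single probe set, 209239_at, read 10.19, 10.14 and 10.03 in Nrf2 siRNA, 10.10, 10.05 and 9.98 in NS siRNA, and 9.93, 9.92 and 9.82 in mock. The 2 siRNA groups overlapped (difference 0.08 ± 0.06 SE, interval -0.05 to 0.20, adjusted p = 0.312). All 3 Nrf2 siRNA arrays lay above all 3 mock arrays, and NFKB1 rose by 0.23 ± 0.06 against mock (adjusted p = 0.00836). NS siRNA stood 0.16 ± 0.06 above mock, which did not pass (adjusted p = 0.0666). That difference did pass with quantile normalization (limma adjusted p = 0.0165), a replicate block (0.0221), a filter on level (0.0362) or trended and robust variances (0.0392).

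REL encodes c-Rel, the subunit best known from lymphocytes, where it drives activation genes. All 5 of its probe sets were called higher in Nrf2 siRNA than in NS siRNA. The brightest, 235242_at, read 9.72, 9.88 and 9.71 in Nrf2 siRNA, 9.23, 9.39 and 9.21 in NS siRNA, and 9.26, 9.16 and 9.14 in mock. Every Nrf2 siRNA array was above every array of both other groups, by 0.50 ± 0.07 (SE) on average against NS siRNA (adjusted p = 4.71e-05) and 0.59 ± 0.07 against mock (adjusted p = 2.07e-05). The controls overlapped here and differed by 0.09 ± 0.07 (adjusted p = 0.361).

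The other REL probe sets gave differences against NS siRNA of 0.55 ± 0.11 (206036_s_at), 0.47 ± 0.10 (239486_at), 0.42 ± 0.07 (228812_at) and 0.26 ± 0.08 (206035_at), all SE. Against mock they stood at 0.54 ± 0.11, 0.45 ± 0.10, 0.43 ± 0.07 and 0.22 ± 0.08 in the same order, of which the last did not pass (adjusted p = 0.0726) unless mock replicate 3 or Nrf2 siRNA replicate 2 was left out (adjusted p = 0.0482 and 0.0377). NS siRNA and mock overlapped for all 5, with differences between -0.04 and 0.09 and intervals reaching no further than -0.24 and 0.23. Probe set 206035_at was the weakest call: it lies below the median level of all probe sets, its Nrf2 siRNA arrays read 7.15, 6.80 and 6.83, against 6.64, 6.72 and 6.64 in NS siRNA, and without Nrf2 siRNA replicate 1 its difference was 0.15 (adjusted p = 0.0793). Leaving out NS siRNA replicate 1 or 3 also ended that call (adjusted p = 0.065 and 0.0689).

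NFKB2 encodes p100, which is at once an IkB-like inhibitor and the precursor of p52. Probe set 207535_s_at read 9.16, 8.92 and 9.11 in Nrf2 siRNA, 10.53, 10.57 and 10.60 in NS siRNA, and 9.88, 9.83 and 9.70 in mock. The 3 groups did not overlap: NS siRNA was highest, mock in between and Nrf2 siRNA lowest. The Nrf2 siRNA level was 35.3% of that in NS siRNA (difference -1.50 ± 0.07 SE, adjusted p = 3.27e-09) and 59.8% of that in mock (-0.74 ± 0.07, adjusted p = 3.87e-06). Probe set 209636_at gave the same order, with 7.57, 7.80 and 7.74 in Nrf2 siRNA, 9.15, 9.20 and 9.10 in NS siRNA, and 8.25, 8.38 and 8.12 in mock. It left 36.7% of the NS siRNA level and 68.5% of the mock level (adjusted p = 8.67e-09 and 9.77e-05). The third, 211524_at, lies below the median level of all probe sets and differed by -0.04 ± 0.07 (interval -0.19 to 0.11), with overlapping groups, so 2 of the 3 probe sets carry the NFKB2 result.

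RELB encodes the partner of p52 in the non-canonical dimer. Its probe set, 205205_at, read 8.67, 8.49 and 8.70 in Nrf2 siRNA, 9.19, 9.19 and 9.24 in NS siRNA, and 8.94, 9.15 and 8.91 in mock. The Nrf2 siRNA arrays were below all arrays of both controls, at -0.59 ± 0.07 (SE) against NS siRNA (adjusted p = 2.03e-05) and -0.38 ± 0.07 against mock (adjusted p = 0.00128). RELB thus had the same order of groups as NFKB2, with a smaller distance between the controls (NS siRNA 0.21 ± 0.07 above mock, adjusted p = 0.0467).

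NFKBIE encodes IkB-epsilon, an inhibitor that is induced late and holds RELA and REL dimers. Its probe set, 203927_at, read 8.123, 8.293 and 8.213 in Nrf2 siRNA, 9.031, 8.997 and 8.998 in NS siRNA, and 8.414, 8.479 and 8.479 in mock. The groups did not overlap, and Nrf2 siRNA was lowest. NFKBIE fell by 0.80 ± 0.05 (SE) against NS siRNA (adjusted p = 7.80e-08) and by 0.25 ± 0.05 against mock (adjusted p = 0.00287).

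TNFAIP3 encodes A20, the ubiquitin-editing enzyme that shuts signalling off upstream of IKK. Probe set 202644_s_at read 9.40, 9.21 and 9.10 in Nrf2 siRNA, 9.99, 10.07 and 9.89 in NS siRNA, and 9.42, 9.43 and 9.38 in mock. The Nrf2 siRNA arrays were below all NS siRNA arrays (-0.75 ± 0.07 SE, adjusted p = 3.03e-06) and overlapped the mock arrays (-0.17 ± 0.07, interval -0.33 to -0.01, adjusted p = 0.108). The other probe set, 202643_s_at, gave -0.73 ± 0.07 against NS siRNA (adjusted p = 1.29e-06) and -0.15 ± 0.07 against mock (adjusted p = 0.119). The comparison with mock turns on single arrays: without Nrf2 siRNA replicate 1, 202644_s_at passed at -0.25 (adjusted p = 0.0114), and without mock replicate 1, 202643_s_at passed at -0.20 (adjusted p = 0.0441).

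NFKBIA encodes IkB-alpha, the fast feedback inhibitor of the canonical dimer. Probe set 201502_s_at read 12.14, 12.05 and 11.93 in Nrf2 siRNA, 12.38, 12.49 and 12.19 in NS siRNA, and 12.09, 12.03 and 11.93 in mock. It was 0.31 ± 0.08 (SE) lower in Nrf2 siRNA than in NS siRNA (adjusted p = 0.00671), while Nrf2 siRNA and mock overlapped (0.03 ± 0.08, interval -0.14 to 0.20). The dim probe set 231699_at differed by -0.18 ± 0.06 from NS siRNA (adjusted p = 0.0264) and by -0.01 ± 0.06 from mock. Its call against NS siRNA was lost without any 1 of NS siRNA replicates 1, 2 or 3 or Nrf2 siRNA replicates 2 or 3 (adjusted p from 0.0523 to 0.0897).

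**Figure D2:**
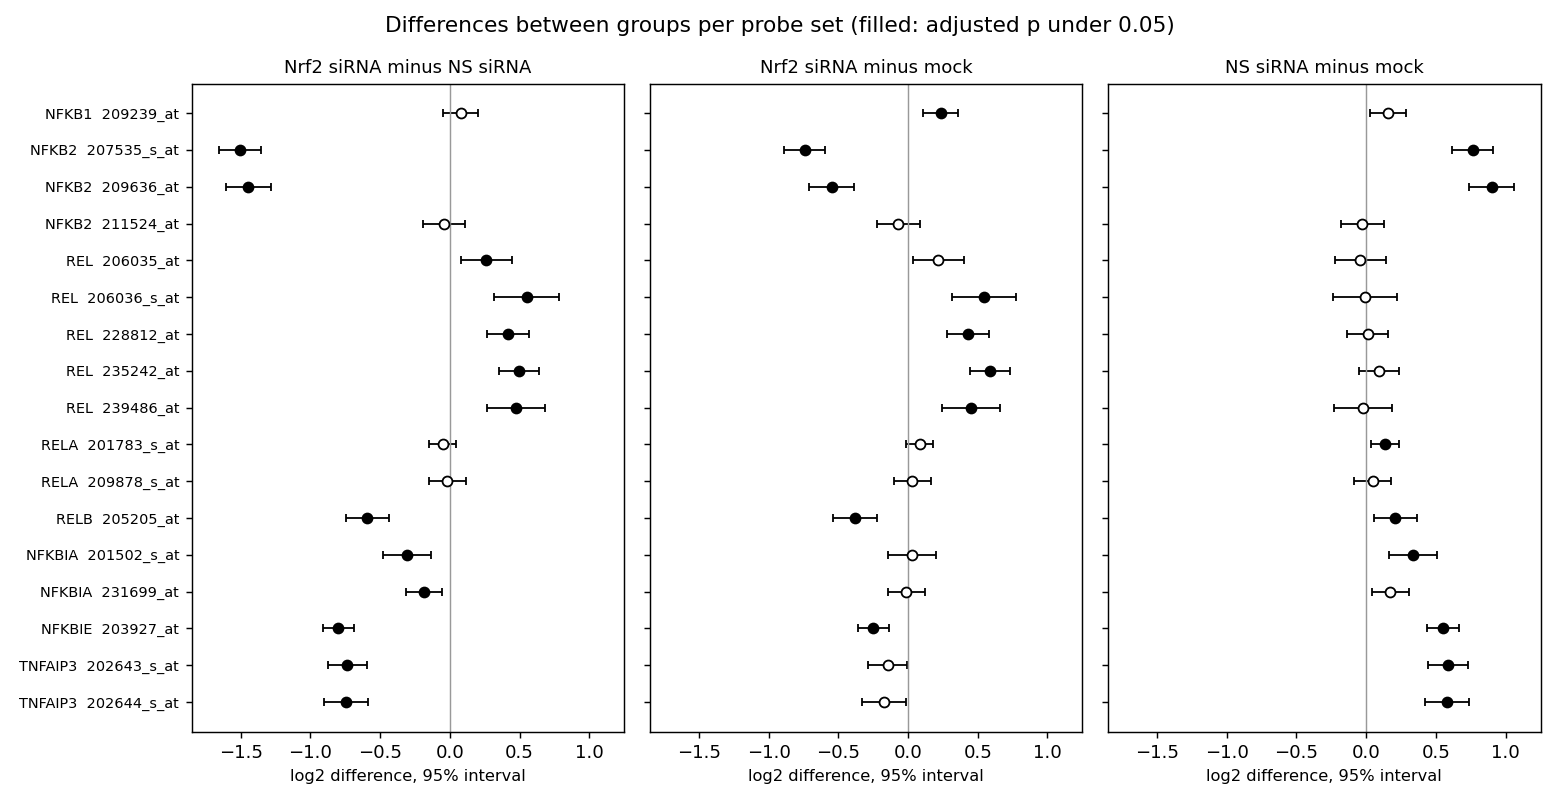
Log2 difference (horizontal axes) of each member probe set (rows) for Nrf2 siRNA minus NS siRNA, Nrf2 siRNA minus mock and NS siRNA minus mock, from left to right. Points are model estimates from 3 arrays a group, bars are 95% intervals, and filled points passed at adjusted p under 0.05. NFKB2, RELB and NFKBIE lie below 0 in both comparisons of Nrf2 siRNA, REL lies above 0 in both, and no filled point lies below 0 in NS siRNA minus mock.

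NF-kB dimers bind a short element called the kB motif, and 4 promoters are printed: those of the 2 genes with the largest fall that have a RefSeq entry, of the fast inhibitor, and of the gene that rose. Of the 8 genes 6 had an entry among RefSeq start sites (GRCh38.p14), with 10 windows of 300 bases, 250 before a start and 50 after it. They were searched on both strands for the kB motif, written GGGRNWYYCC, and for TGACNNNGC. The latter is the core of the antioxidant response element that NRF2 binds with a small MAF protein. R stands for A or G, W for A or T, Y for C or T and N for any base. The kB motif was in 6 of the 10 windows, against 5.91% of 35116 windows of all genes, and the antioxidant core in 1, against 13.3%. Windows of 1 gene are not independent of each other, and the members were chosen as genes of the NF-kB pathway. A match describes letters only and shows no binding. Capitals mark matches to the kB motif in the first 3 sequences and, in NFKBIA, a kB match followed by the antioxidant core.
NFKB2 (chr10:102394328-102394627, plus strand): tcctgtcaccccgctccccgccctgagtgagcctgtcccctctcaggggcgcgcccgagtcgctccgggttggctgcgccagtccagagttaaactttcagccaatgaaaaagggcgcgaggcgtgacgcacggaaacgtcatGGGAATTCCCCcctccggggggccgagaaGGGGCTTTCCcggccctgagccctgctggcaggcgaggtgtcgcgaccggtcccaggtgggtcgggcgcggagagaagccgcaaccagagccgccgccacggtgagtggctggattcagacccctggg
TNFAIP3 (chr6:137867009-137867308, plus strand): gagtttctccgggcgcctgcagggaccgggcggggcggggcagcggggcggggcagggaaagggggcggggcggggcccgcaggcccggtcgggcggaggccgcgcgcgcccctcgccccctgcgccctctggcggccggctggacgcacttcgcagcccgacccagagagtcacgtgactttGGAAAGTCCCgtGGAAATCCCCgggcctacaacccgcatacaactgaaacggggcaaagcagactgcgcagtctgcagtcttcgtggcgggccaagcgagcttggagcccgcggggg
REL (chr2:60881324-60881623, plus strand): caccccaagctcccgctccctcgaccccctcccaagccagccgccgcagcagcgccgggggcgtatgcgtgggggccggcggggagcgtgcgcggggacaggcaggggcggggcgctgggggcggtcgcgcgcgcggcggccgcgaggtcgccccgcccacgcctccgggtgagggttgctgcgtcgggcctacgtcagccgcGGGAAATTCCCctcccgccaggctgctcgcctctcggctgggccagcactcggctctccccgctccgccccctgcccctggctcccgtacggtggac
NFKBIA (chr14:35404700-35404999, minus strand): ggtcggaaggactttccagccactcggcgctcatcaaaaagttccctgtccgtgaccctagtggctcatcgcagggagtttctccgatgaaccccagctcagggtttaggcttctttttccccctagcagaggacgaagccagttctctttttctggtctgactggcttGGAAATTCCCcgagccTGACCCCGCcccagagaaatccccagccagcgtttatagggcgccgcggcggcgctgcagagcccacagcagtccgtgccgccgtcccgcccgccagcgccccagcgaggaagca

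Positions count the first base of a match from the start site, with negative numbers before it. In the NFKB2 window the matches began at -107, -106 and -78; the first 2 overlap, and the one at -107 reads the same on both strands. In TNFAIP3 there were 2 matches on the minus strand, at -67 and -55. The REL match is an overlapping pair, at -47 and -46, so a gene that rose and genes that fell both hold the motif. NFKBIA had its kB match at -81 and its antioxidant core at -65. Another NFKB2 window held 2 kB matches and the remaining one none; 1 of 2 NFKB1 windows held a match, and neither RELA window did.

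In the comparison of Nrf2 siRNA with mock, 9 of the 17 probe sets passed, 5 higher and 4 lower, against 28.6% of all probe sets (15.2% higher and 13.3% lower). The 4 lower were 2 of NFKB2 and those of RELB and NFKBIE; the 5 higher were 4 of REL and that of NFKB1. For NFKBIA and TNFAIP3 no probe set passed in this comparison. With only probe sets above the median level fitted, 10726 of 23096 passed, and 8 of 13 member probe sets. The median difference was 0.03, beside -0.01 over all probe sets, and 0 of the 17 reached 2-fold, against 1.33% of all probe sets. The 2 comparisons share the Nrf2 siRNA arrays.

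Members also differed between NS siRNA and mock. In NS siRNA 8 of the 17 probe sets were called above mock and 0 below, where 12.4% of all probe sets were called higher and 13.5% lower (25.9% in either direction). With only probe sets above the median level fitted, 10104 of 23096 were called in either direction, and 9 of 13 member probe sets. NFKB2 rose by 0.76 ± 0.07 (207535_s_at, SE, adjusted p = 4.01e-06) and 0.90 ± 0.07 (209636_at, adjusted p = 1.78e-06), TNFAIP3 by 0.58 ± 0.07 (202644_s_at, adjusted p = 6.74e-05), NFKBIE by 0.55 ± 0.05 (adjusted p = 6.18e-06) and NFKBIA by 0.34 ± 0.08 (201502_s_at, adjusted p = 0.00655). RELB at 0.21 ± 0.07 (adjusted p = 0.0467) and RELA at 0.13 ± 0.05 (201783_s_at, adjusted p = 0.0458) were close to the threshold. With equal array medians neither passed (adjusted p = 0.074 and 0.132), which left 6 called, and with quantile normalization 9 were called. Leaving out any 1 of the NS siRNA or mock arrays, or Nrf2 siRNA replicate 1, also ended the RELA call (adjusted p from 0.0514 to 0.145), and the same arrays except mock replicate 2 ended the RELB call (adjusted p from 0.0535 to 0.167). The median difference was 0.16, beside 0.03 over all probe sets. These differences use the same NS siRNA arrays as the main comparison, so an NS siRNA level enters both.

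Genes around the members were read by 1 probe set each, the one of highest mean level, with the p adjusted over all probe sets. By that reading 20.4% of 19775 genes were higher and 24.7% lower in Nrf2 siRNA than in NS siRNA, and the median difference of all genes was -0.05. Among the 8 members it was -0.45, with 1 higher and 5 lower. Ligands came mostly without a call: of 10 measured, 2 were higher and 1 lower (median -0.06). TNFSF15 (TL1A), which activates NF-kB through its death-domain receptor, was 6.69-fold above NS siRNA and 5.61-fold above mock. TNFSF10 (TRAIL), the death ligand, rose 4.51-fold and 4.74-fold, from a control level below the median of all probe sets (7.66 ± 0.31 in Nrf2 siRNA, against 5.49 ± 0.08 in NS siRNA, SD, n = 3). The classical ligands did not pass over all arrays: TNF was at -0.11 (adjusted p = 0.198), IL1B at -0.02 (adjusted p = 0.81) and IL1A at -0.16 ± 0.07 (SE, adjusted p = 0.0708), though IL1A passed when Nrf2 siRNA replicate 3 (adjusted p = 0.0396) or NS siRNA replicate 2 (adjusted p = 0.0354) was left out. LTA was called at -0.16 (adjusted p = 0.0372), a call lost with either other scaling, with a trended variance or only the groups compared, and without any 1 of NS siRNA replicates 2 or 3 or Nrf2 siRNA replicates 2 or 3.

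Of 16 receptors 5 were higher and 4 lower (median -0.04). TNFRSF11A (RANK), a receptor that engages both NF-kB pathways, rose against both controls (3.65-fold and 3.90-fold, NS siRNA given before mock), with the controls 0.10 ± 0.06 apart (SE, adjusted p = 0.303). Its control levels, 7.42 in NS siRNA and 7.32 in mock, lay below the median of all probe sets. IL1R1, the interleukin 1 receptor, rose 1.91-fold against NS siRNA but stood at 0.07 ± 0.05 against mock, since NS siRNA lay 0.86 below mock. The TRAIL receptor gene TNFRSF10A fell 2.08-fold against NS siRNA and stood at -0.18 ± 0.06 against mock (adjusted p = 0.0607). That difference passed in 5 other settings (adjusted p from 0.00358, without mock replicate 3, to 0.0485), and 2 of its 3 probe sets were called lower than mock. TLR6, a Toll-like receptor for bacterial lipopeptides, fell by 0.71 against NS siRNA and by 0.35 against mock. Of 15 adaptors 4 were higher and 5 lower (median -0.01). MYD88, the adaptor of Toll-like and interleukin 1 receptors, was 1.97-fold above NS siRNA and 1.41-fold above mock. TRAF1, an NF-kB target that modifies TNF receptor signalling, fell against both (1.65-fold below NS siRNA, 1.15-fold below mock), but the call against mock was lost without mock replicate 3 (-0.14, adjusted p = 0.0881) or Nrf2 siRNA replicate 2 (adjusted p = 0.0685), and 1 of its 2 probe sets had the other sign there. TRADD, the adaptor of TNF receptor 1, fell by 0.39 against each control, and for TRAF5 the 2 probe sets differed in sign.

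Of 13 kinases 5 were higher and 5 lower (median -0.04). MAP3K14, the NIK kinase upstream of NFKB2 processing, read 9.12 ± 0.04 in Nrf2 siRNA, 10.43 ± 0.11 in NS siRNA and 9.70 ± 0.14 in mock (SD, n = 3 each). It fell 2.48-fold against NS siRNA (limma adjusted p = 2.14e-08) and by 0.58 ± 0.07 (SE) on the log2 scale against mock (adjusted p = 5.87e-05). Its group means thus had the order seen for NFKB2 and RELB. Those of NFKBIE, TRAF1, TLR6 and BCL2A1 had it too, so the order was not particular to the non-canonical genes. IKBKB, the IKK subunit of the canonical pathway, was 1.57-fold above NS siRNA and 1.49-fold above mock with the controls 0.08 ± 0.05 apart (SE, adjusted p = 0.27), while the IKK partner CHUK stood at 0.02 and the scaffold IKBKG at -0.06, neither of which passed against NS siRNA. MAP3K8 (TPL2), a kinase held by p105, was 1.72-fold above NS siRNA and 1.54-fold above mock, though only 1 of its 2 probe sets was called against mock. IRAK2, a kinase of the interleukin 1 pathway, was lower than NS siRNA (-0.85 ± 0.06) and higher than mock (0.80 ± 0.06), between the 2 controls. Of its 3 probe sets, 2 were called lower than NS siRNA and 1 was called higher than mock. CHUK, IKBKG, TNF and IL1B were added after their values were seen.

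Of 5 other IkB-like genes 1 was higher and 2 lower (median -0.09). NFKBIZ encodes IkB-zeta, a nuclear IkB protein that activates secondary NF-kB targets rather than holding dimers in the cytoplasm. It rose 3.28-fold against NS siRNA (adjusted p = 4.48e-10) and 4.05-fold against mock (adjusted p = 2.93e-10), the opposite direction to NFKBIA and NFKBIE against NS siRNA. NFKBIB fell by 0.24 ± 0.06 (SE, adjusted p = 0.00823), but 1 of its 3 probe sets was called the other way. COMMD1, which limits NF-kB by promoting RELA turnover, fell by 0.19 ± 0.05, and the repressor gene NKRF stood at -0.09, which passed only with quantile normalization (-0.16, adjusted p = 0.00993). Of 13 other feedback and ubiquitin-editing genes 2 were higher and 5 lower (median -0.09). The A20-binding protein gene TNIP1 was 0.47 lower than NS siRNA and 0.23 higher than mock, and TNIP2 was 0.38 lower than NS siRNA with no call against mock (0.09). Of the 2 TNIP1 probe sets, 1 was called against NS siRNA and 1 against mock. TAX1BP1, an A20 adaptor, was 1.52-fold above NS siRNA and 1.77-fold above mock. For ITCH, a ubiquitin ligase of the A20 complex, the probe sets disagreed: 3 of 6 were called lower and 1 higher against NS siRNA.

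Of 31 measured transcriptional targets 8 were higher and 13 lower against NS siRNA (median -0.08). Against mock 14 were higher and 4 lower (median 0.06), where 15.6% of all genes were higher and 15.5% lower. In NS siRNA against mock 18 were higher and 1 lower (median 0.23), where 14.1% of all genes were higher and 14.3% lower. BCL2A1, an anti-apoptotic target, read 7.28 ± 0.25 in Nrf2 siRNA, 10.39 ± 0.09 in NS siRNA and 8.72 ± 0.14 in mock (SD, n = 3 each). That made it 8.64-fold lower than NS siRNA and 2.73-fold lower than mock, in the NFKB2 order. PLAU, the urokinase gene, fell 1.82-fold against NS siRNA and stood at the mock level (0.00 ± 0.07 SE, interval -0.15 to 0.15). Other targets went the REL way: PTGS2, the inducible cyclooxygenase, was 2.88-fold above NS siRNA and 2.93-fold above mock, with the controls 0.02 ± 0.09 apart, and TNFAIP6, an inflammation-induced hyaluronan-binding protein gene, rose 4.22-fold and 3.74-fold. The TNFAIP6 control levels, 7.10 in NS siRNA and 7.27 in mock, lay below the median of all probe sets.

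**Figure D3:**
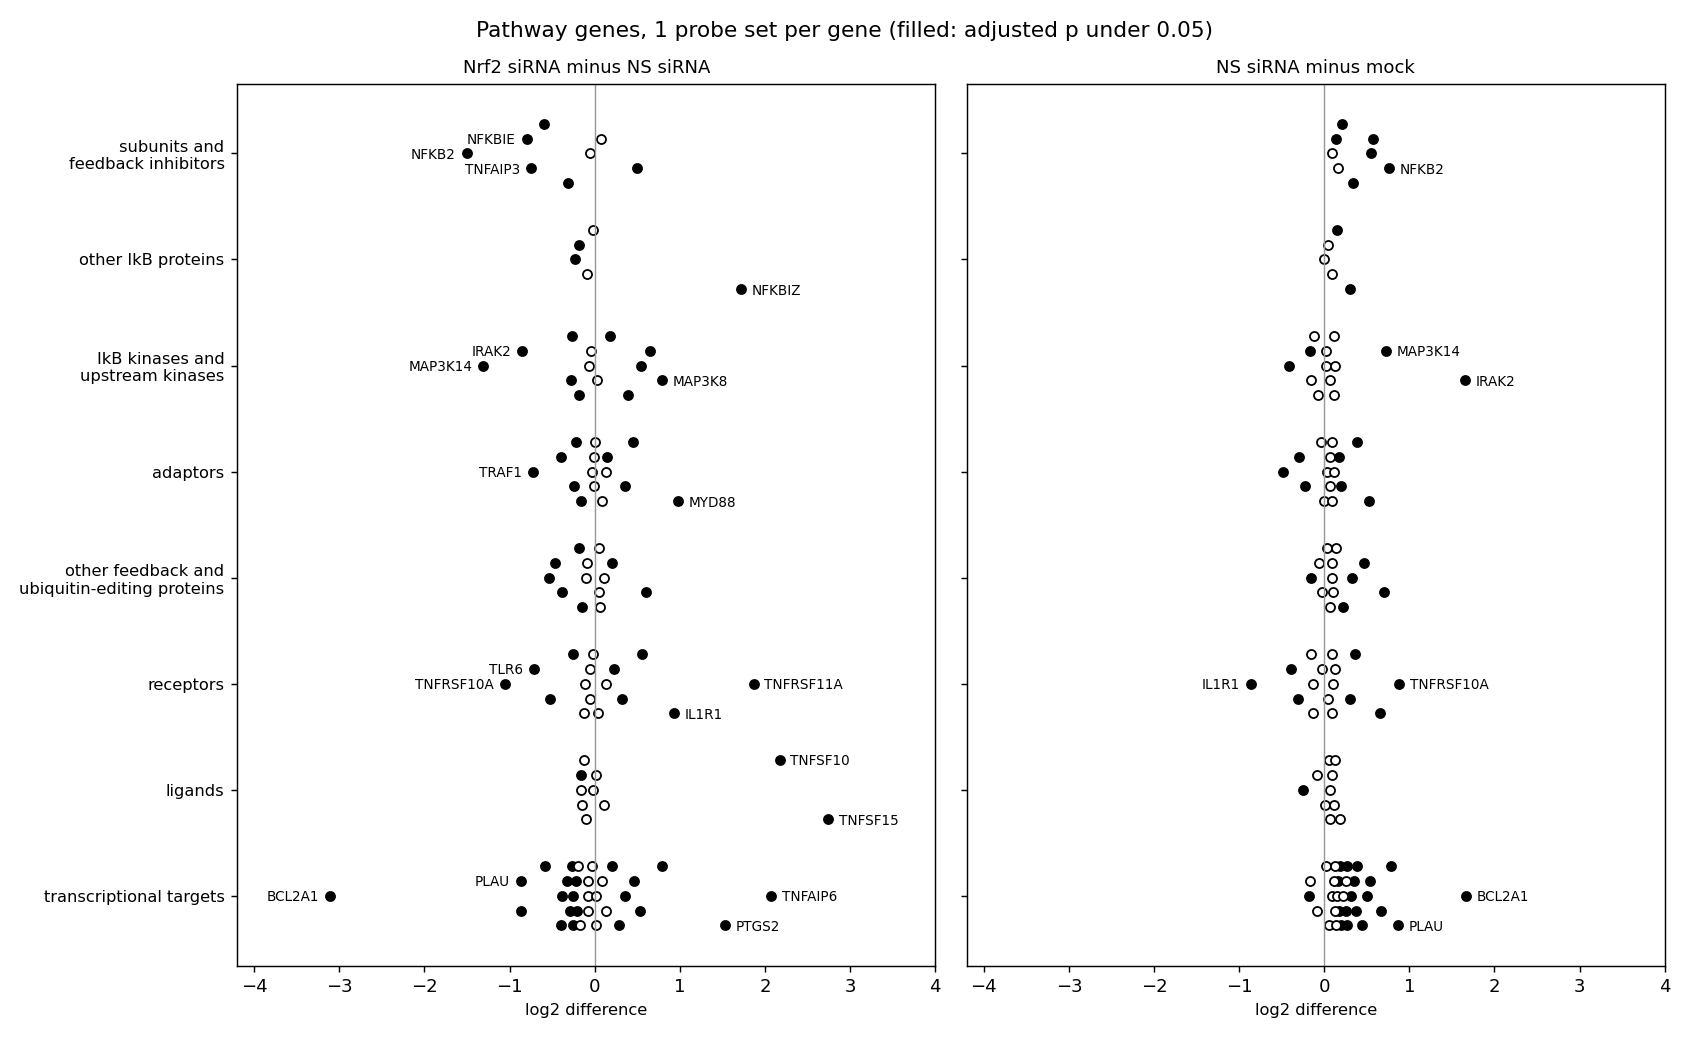
Log2 difference (horizontal axes) of the genes of each list (rows), 1 probe set per gene, for Nrf2 siRNA minus NS siRNA (left) and NS siRNA minus mock (right). Filled points passed at adjusted p under 0.05; vertical offsets within a row only separate points, and names stand beside genes at 0.7 or more in either direction that the text describes. In the left panel NFKB2 and MAP3K14 lie furthest left in their rows and BCL2A1 furthest left of all at -3.11, and in the right panel most filled targets lie right of 0.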

How the data were processed

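Total RNA of A549 cells was labelled as biotinylated cRNA and read on 9 Affymetrix arrays, 1 per sample, per the labels' protocols. The authors deposited log2 expression levels of 54675 probe sets; the submitters' processing notes name RMA, and no source used here gives its version or settings. They ran from 3.60 to 15.06 with 0 missing values and were used as deposited. No detection calls were used, so dim probe sets have no background test. All columns were matched to samples by name, and 0 were left over.

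After 62 control probe sets were set aside, 41091 carried 1 gene in the array annotation, 1801 several and 11721 none named here; a RefSeq gene table (GRCh38.p14) gave current symbols to 41037 of them by Entrez number. No filter on low values was applied. A linear model with 3 group means was fitted over the 9 arrays with limma 3.58.1 in R 4.3.3 (lmFit, eBayes; 6 residual and 6.20 prior degrees of freedom). Two-sided p values were adjusted (Benjamini-Hochberg) over the 41091 probe sets, with a threshold of 0.05; intervals are 95% and not adjusted. Precision is limited by how many arrays there are; the residual SD had a median of 0.0732. The fit was tested on simulated data. Members and gene lists were chosen with earlier results of these data known. The pathway genes named come from the up to 4 per list that ranked first by adjusted p for Nrf2 siRNA against NS siRNA, and others are marked as added. Alternatives were other scalings (equal medians, quantile), a filter on level, 1 probe set per gene, another variance model, fits of 2 groups, a replicate block, a threshold of 0.01 and leaving out each array. Sequences are from RefSeq. Python 3.11.15 with matplotlib 3.10.9 drew the figures.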

Additional observations from a re-analysis of the deposited data

How the results depend on the processing

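The threshold of 0.01 was not part of the counts of recomputed differences given here. Across the other alternatives, 741 of 777 recomputed differences of member probe sets kept their direction and their side of the threshold. Of the rest, 25 fell short of it, 11 newly passed and 0 that passed changed sign. A difference that passed in neither setting was given no direction. At the threshold of 0.01, 11 of the 17 member probe sets passed for Nrf2 siRNA against NS siRNA. Against mock, 9 passed for Nrf2 siRNA and 6 for NS siRNA at that threshold. The NFKB2 (207535_s_at and 209636_at), RELB, NFKBIE and TNFAIP3 calls against NS siRNA, and those of REL other than 206035_at, held in every setting that tested them. Of 1473 recomputed differences of NFE2L2 and the named pathway genes, 1441 were likewise unaltered, 18 fell short, 14 newly passed and 0 changed sign. With 1 probe set per gene, which tests fewer features, 9422 of 19775 genes and 6 of 8 members passed for Nrf2 siRNA against NS siRNA, 6530 and 5 for Nrf2 siRNA against mock, and 6082 for NS siRNA against mock. Leaving out 1 array gave 14797 to 16970 probe sets and 11 to 13 members for the first comparison, 9814 to 11545 and 9 to 10 for the second, and 8827 to 10912 and 6 to 8 for the third. Deviations of same-numbered arrays correlated at -0.17 to 0.18, and those of other-numbered arrays at -0.28 to 0.14. The ranges overlap, but the highest values were of same-numbered arrays, so they do not settle whether the numbers pair the samples. The main model left the numbers out. With the replicate number as a block, 13, 9 and 8 member probe sets passed, as without it; in NS siRNA against mock the RELA (adjusted p = 0.0577) and RELB (0.0746) calls were lost, and NFKB1 (0.0221) and NFKBIA 231699_at (0.0404) passed; the cause was not tested. Each group held 3 arrays, and 4 of the 17 probe sets were dimmer than the median of all probe sets. Leaving the threshold of 0.01 aside, the member differences that lost a call lay between 0.11 and 0.25 in size. At 0.01, the REL 206035_at call against NS siRNA was lost at a larger difference, 0.26 (limma adjusted p = 0.0243).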
